A study of Mus musculus with 6 samples.

Results

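Miat, Malat1, Neat1, Gas5, Snhg1 and Snhg3 are long noncoding RNAs (lncRNAs), transcripts that act or carry smaller RNAs without being translated into a protein of their own. They were examined in mouse embryonic stem (ES) cells after knockdown of Atad2, whose product is an ATPase that attaches to acetylated histones through its bromodomain. All probes of the beadchip annotated with one of the 6 symbols, with an older alias of it or with its gene identifier were taken, which gave 5 of 45281 probes, for 4 of the 6 genes (the beadchip's annotated probes stand for 19057 genes). Miat had 2 probes, Neat1, Gas5 and Snhg1 had 1 each, and no annotated probe was found for Malat1 and Snhg3, whose levels were therefore not analysed here. The set was selected on the difference of Miat between knockdown and control in these same arrays, where it was already known to be large. The differences of the members between the groups are therefore given as a description, without a test.

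These RNAs fall into 2 kinds by role. Miat (also named Gomafu or Rncr2), Malat1 and Neat1 are long RNAs that stay in the nucleus. Miat is best known from neurons and the retina, gathers in spots of its own and binds splicing factors, and its gene is bound by the pluripotency factors Oct4 and Nanog in mouse ES cells. Malat1 collects at nuclear speckles, the stores of splicing factors, and Neat1 is the scaffold on which paraspeckles are built. Gas5, Snhg1 and Snhg3 are host genes of small nucleolar RNAs (snoRNAs), which sit in their introns and guide the modification or cutting of ribosomal RNA, while the spliced host RNA is short-lived and is degraded by nonsense-mediated decay.

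Both groups came from 46C mouse ES cells in which a His-Flag-Ha tag had been knocked into the Atad2 gene, so the tag was shared by knockdown and control. The cells had been transduced for 24 h with pLKO.1-puromycin lentivirus and selected for 5 days in 2 µg/ml puromycin, and stable pools, not single clones, were used. The shAtad2 group carried a short hairpin RNA against Atad2 and the shCtrl group a hairpin described in the labels as non-targeting. Both had been kept for 3 days without LIF, the cytokine that holds mouse ES cells undifferentiated, and each group held 3 arrays, numbered as replicates 1 to 3. Whether the replicates were separate cultures is not in the labels, so errors and p-values measure only how these arrays spread, and part of that may be technical. Between 17792 and 18513 probes per array were above background, meaning a detection p-value under 0.05. Pluripotency markers were high on all arrays, Pou5f1 (which encodes Oct4) reading 12.38 to 12.98 and Nanog 12.67 to 13.08 in normalized log2 intensity. Atad2, the targeted gene, read 5.69, 5.64 and 5.41 in shAtad2 and 6.28, 6.48 and 6.39 in shCtrl. Its difference was -0.80 (SE 0.14). The adjusted p of the limma fit was 0.310, and 0.0927 with the replicate number as a block, so Atad2 did not pass a threshold of 0.05. The probe was dim, with an unnormalized intensity of 153.2 to 161.9 in shAtad2, where the lowest intensity above background was 137.2 to 148.9 on the 6 arrays. The arrays numbered 3 of both groups lay away from the rest on the leading principal component, at 26.1 and 26.8 against -15.4 to -11.9, so values of single arrays are given throughout.

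The starts of the annotated genes are shown first, because snoRNA host RNAs typically begin with a tract of pyrimidines and can be set beside Miat in this respect. RefSeq promoter windows of build GRCm38.p6 were at hand for 5 of the 6 members, Neat1 having none. Capitals mark an unbroken run of C and T that begins at the annotated start of the RNA. The Miat window holds 250 bases before the start and 50 from it (chr5:112228899-112229198, minus strand).
Miat: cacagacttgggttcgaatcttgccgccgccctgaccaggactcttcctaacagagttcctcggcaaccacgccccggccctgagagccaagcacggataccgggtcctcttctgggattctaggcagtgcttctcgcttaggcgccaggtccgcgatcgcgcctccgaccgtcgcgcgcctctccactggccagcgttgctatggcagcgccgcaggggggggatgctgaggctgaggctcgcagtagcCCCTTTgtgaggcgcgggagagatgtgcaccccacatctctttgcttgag
Of the other windows, which are also 300 bases long, only the 30 bases before the start and the 30 from it are printed. These stretches lie at chr1:161035136-161035195 (plus strand) for the downstream of 2 Gas5 starts, chr1:161034571-161034630 (plus strand) for the upstream one, chr19:8723457-8723516 (plus strand) for Snhg1, chr4:132353657-132353716 (minus strand) for Snhg3 and chr19:5802643-5802702 (minus strand) for Malat1.
Gas5 downstream start: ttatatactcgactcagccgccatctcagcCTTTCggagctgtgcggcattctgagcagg
Gas5 upstream start: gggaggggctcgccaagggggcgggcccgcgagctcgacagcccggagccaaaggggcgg
Snhg1: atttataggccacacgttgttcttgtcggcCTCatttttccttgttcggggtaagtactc
Snhg3: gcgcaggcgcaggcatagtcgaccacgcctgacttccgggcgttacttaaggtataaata
Malat1: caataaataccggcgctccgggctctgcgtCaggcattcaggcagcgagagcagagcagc

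The run of pyrimidines was 5 bases long at the downstream Gas5 start, 3 at Snhg1 and 6 at Miat, and Malat1 began with a single C. The upstream Gas5 start and Snhg3 had none. Of all 32851 windows, 2.51% began with a C and a run of at least 5. Both strands of the whole 300-base windows, beyond the stretches printed, were also searched for the TATA box TATAAA, the cAMP response element TGACGTCA, the E box CACGTG, the GC box GGGCGG, the CCAAT box CCAAT and the octamer ATGCAAAT, which Oct4 can bind. The downstream Gas5 window held the cAMP response element, 46 bases before the start, which 1.79% of all windows hold. A TATA box on the strand opposite the RNA lay 29 bases before the start of Snhg1. One on the strand of the RNA lay 22 bases after the start of Snhg3. Of all windows, 13.6% hold a TATA box on either strand. The Miat window held 1 GC box, 224 bases before the start, that of Snhg1 held 1, and the upstream and downstream Gas5 windows held 5 and 3 (35.7% of all windows hold at least 1). None of the member windows held an octamer (1.74% of windows) or an E box (7.15% of windows), and a CCAAT box (37.4% of windows) lay only in that of Snhg3. These are matches of letters and were not set against binding data.

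Whether each probe read above background was asked first, since a difference can be given only for RNA that was seen. On the unnormalized scale the lowest intensity above background was 137.2 to 148.9, depending on the array. The first Miat probe read 637.3, 571.6 and 850.5 in shAtad2 and 363.6, 382.0 and 360.5 in shCtrl, with a detection p-value of 0 on every array. The Neat1 probe, with 218.5, 236.7 and 276.5 in shAtad2 and 252.1, 219.6 and 239.2 in shCtrl, was also above background throughout. The second Miat probe read 139.2, 132.8 and 140.0 in shAtad2 and 147.0, 134.9 and 129.1 in shCtrl. Its detection p-values ran from 0.0609 to 0.172, so it was not well above background on any array.

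Neither snoRNA host gene with a probe was seen. The Gas5 probe read 116.9, 104.5 and 121.6 in shAtad2 and 121.7, 121.6 and 125.8 in shCtrl, with detection p-values of 0.277 to 0.995. The Snhg1 probe read 121.6, 118.7 and 119.5 in shAtad2 and 129.5, 125.6 and 120.4 in shCtrl, with detection p-values of 0.482 to 0.710. Both groups lay in the background, so no fold is given for Gas5, Snhg1 or the second Miat probe, and the arrays do not show whether these RNAs were absent. The annotation places 8 snoRNA genes inside Gas5, 8 inside Snhg1 and 2 inside Snhg3, and 0 of them had a probe with their symbol. The host RNAs were thus the only annotated readout of the Gas5 and Snhg1 loci on the beadchip, and the Snhg3 locus had none. In all, 2 of the 6 members, Miat and Neat1, could be compared.

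**Figure D1:**
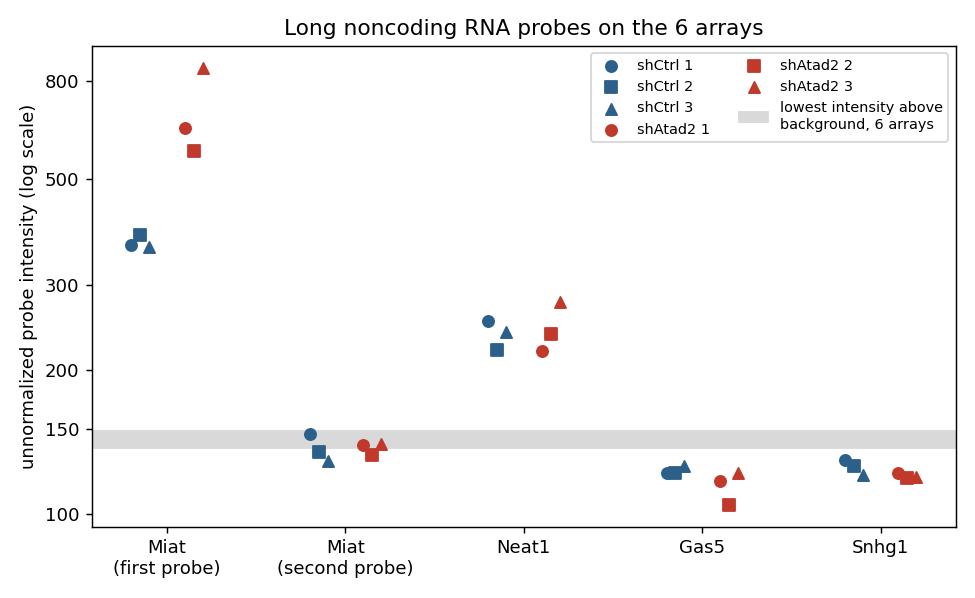
Unnormalized intensity (log scale) of the 5 member probes on the 6 arrays, red for shAtad2 and blue for shCtrl, with a symbol for each replicate number; the grey band spans the lowest intensity above background, 137.2 to 148.9 on the 6 arrays. The first Miat probe and the Neat1 probe lie above the band, and the other 3 probes lie within or below it.

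Miat was higher in the knockdown cells on every array. After normalization it read 9.06, 8.96 and 9.48 in shAtad2 and 7.86, 8.12 and 8.06 in shCtrl, on the log2 intensity scale. The lowest shAtad2 array lay 0.84 above the highest shCtrl array, so the groups did not overlap, as was the case for 13.5% of the 10072 genes tested (6.94% higher and 6.59% lower in shAtad2). The group levels were 9.17 ± 0.27 and 8.02 ± 0.13 (SD, n = 3), a difference of 1.15 (SE of the limma fit 0.17), or 2.22-fold. By replicate number the difference was 1.20, 0.84 and 1.41. Only 3 genes had a higher difference, and 11 of the 10072 had a larger one in either direction, the median over all genes being 0.14 in size. Differences of at least 2-fold were seen for 0.248% of genes, 0.0894% higher and 0.159% lower. These ranks restate how Miat was chosen and are no evidence on their own.

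The size of the Miat difference depended on the processing. With no background correction it was 0.90. In the authors' processed values, whose normalization is not given in the sources used here, it was 0.87. The ratio of unnormalized intensity was 1.75, 1.50 and 2.36 for replicates 1, 2 and 3. Leaving out 1 array at a time gave 1.00 to 1.26, the lowest being that without shAtad2 3, and leaving out both arrays numbered 3, an alternative chosen after seeing the data, gave 1.02. The third replicate of shAtad2 lay 0.46 above the mean of the first 2, and that of shCtrl 0.07 above. The median size of this shift over all genes was 0.24 and 0.26, so the Miat shift exceeded that median in shAtad2 and not in shCtrl.

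Neat1 showed no such separation. It read 6.75, 7.11 and 7.30 in shAtad2 and 7.02, 6.80 and 7.12 in shCtrl, and the groups overlapped. The levels were 7.05 ± 0.28 and 6.98 ± 0.17 (SD, n = 3), a difference of 0.07 (SE 0.18), which is smaller than the spread within either group. By replicate number the difference was -0.27, 0.31 and 0.18, with 2 pairs higher and 1 lower in shAtad2. Its sign turned to -0.05 without shAtad2 3 and to -0.02 without shCtrl 2. Both arrays numbered 3 were the highest of their group, by 0.37 and 0.21 over the mean of the other arrays. Neat1 makes a short and a long isoform, and the annotation at hand does not say which the probe reads.

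**Figure D2:**
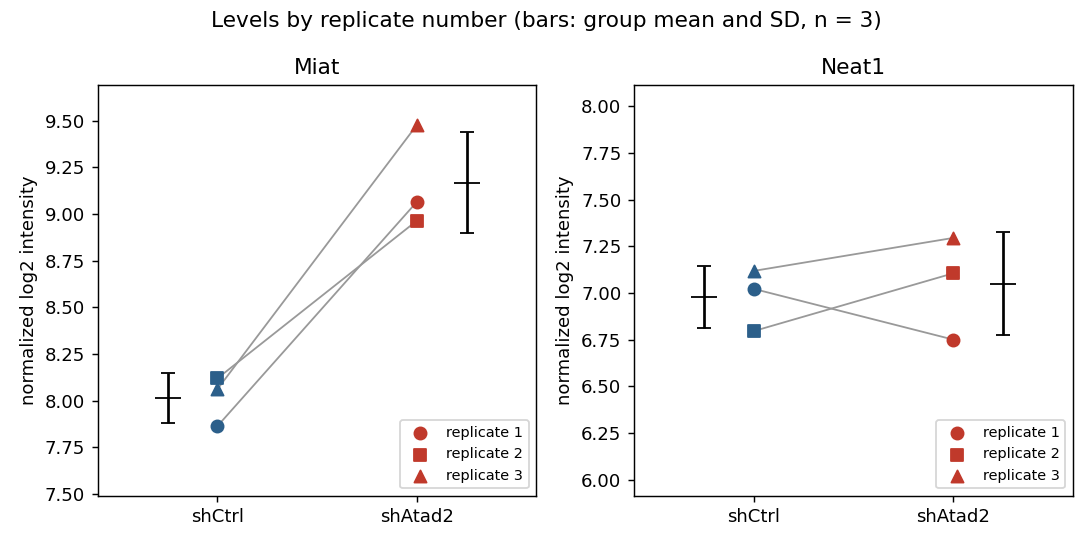
Normalized log2 intensity of Miat and Neat1 in shCtrl (blue) and shAtad2 (red), with lines joining arrays of the same replicate number and black bars for the group mean and SD over 3 arrays. All 3 Miat lines go up, by 0.84 to 1.41, and the Neat1 lines go both ways, from -0.27 to 0.31.

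Other noncoding RNAs were set beside the members to describe how RNAs of the same kind differed. Of the tested genes, 96 have the biotype lncRNA in the gene table, Miat and Neat1 included. With limma, 0 of the other 94 passed the threshold (adjusted p under 0.05), which held for 0% of all genes, and 0 passed with the replicate number as a block (0.0993% of all genes, 0.0199% higher and 0.0794% lower). At an unadjusted p under 0.05 there were 10 (10.6%), 6 higher and 4 lower, against 7.92% of all genes (4.12% higher and 3.8% lower), and with the block 17, against 13.4%. The groups did not overlap in 17 (18.1%, against 13.5%). The median difference of these 94 genes was -0.07, beside 0.00 over all genes, and the differences ran from -0.51 to 0.68, all short of the 1.15 of Miat. As Miat was chosen for the size of its difference, its place above them restates that choice.

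**Figure D3:**
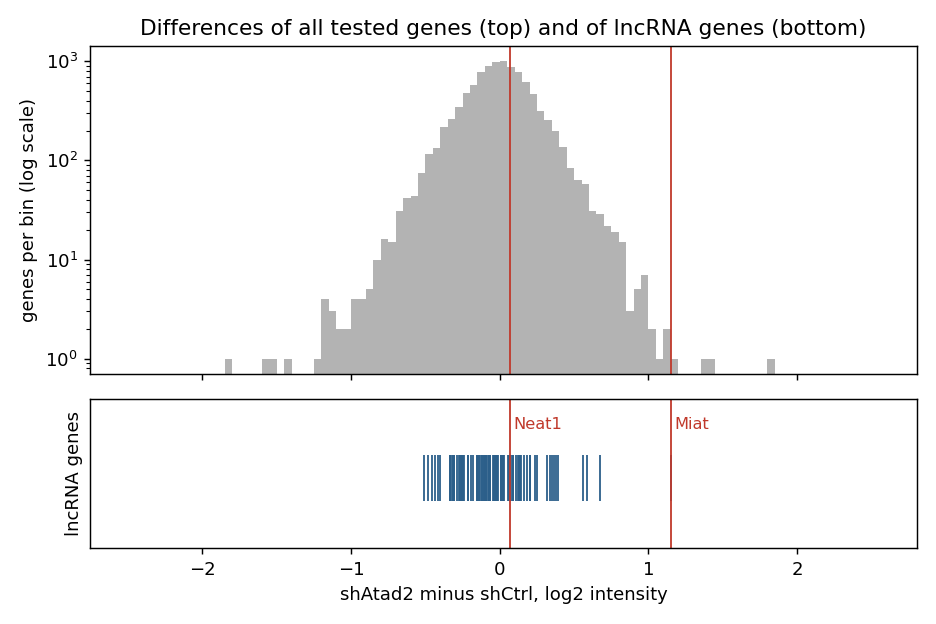
Difference shAtad2 minus shCtrl in log2 intensity for all 10072 tested genes (histogram, log count axis) and for the 96 lncRNA genes (ticks), with red lines at Miat (1.15) and Neat1 (0.07). Miat, chosen for the size of its difference, lies outside the range of -0.51 to 0.68 spanned by the other lncRNA genes. Neat1 lies in the middle of the distribution.

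Of a list of 65 other known noncoding RNA genes, 22 had a probe and 11 were tested. With limma 0 rose and 0 fell, 3 lay higher and 8 lower, and the median was -0.09. At an unadjusted p under 0.05 there were 2 (18.2%), and 3 with the block, against 7.92% and 13.4% of all genes. The groups did not overlap in 2 of the 11 (18.2%, against 13.5% of all genes). Rian, an imprinted RNA made from the maternal chromosome and a host of snoRNAs itself, read 9.56, 9.33 and 9.54 in shAtad2 and 8.66, 9.07 and 9.02 in shCtrl. Its groups did not overlap, and its difference was 0.56 (SE 0.16, adjusted p = 0.448). Tug1, a widely expressed nuclear RNA, read 8.02, 8.18 and 8.03 against 7.75, 7.85 and 7.49, with no overlap and a difference of 0.38 (SE 0.15, adjusted p = 0.570). Its other 2 probes above background differed by -0.13 and -0.11, so the direction of Tug1 rests on the probe chosen. Firre, an X-linked RNA that organizes nuclear domains, differed by -0.31 (SE 0.19), with -0.33, -0.32 and -0.27 by replicate number, and its groups overlapped. Dancr, which restrains differentiation in progenitor cells, differed by -0.25 (SE 0.24), and Pvt1, a neighbour of Myc, by -0.25 (SE 0.17). Pvt1 was above background on 1 shAtad2 and 2 shCtrl arrays.

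Other snoRNA host genes were read in place of the unseen Gas5, Snhg1 and Snhg3. Of 17 listed, 7 had a probe and all 7 were tested. With limma 0 rose and 0 fell, 2 lay higher and 5 lower, and the median was -0.09. At an unadjusted p under 0.05 there were 0, and 1 with the block, against 7.92% and 13.4% of all genes. Snhg12 read 10.25, 10.18 and 10.39 in shAtad2 and 10.46, 10.57 and 10.73 in shCtrl. It was the only one of the 7 whose groups did not overlap (14.3%, against 13.5% of all genes). Its difference was -0.31 (SE 0.14, adjusted p = 0.643). Snhg5 differed by -0.25 (SE 0.15) and Snhg16 by -0.25 (SE 0.15), the other Snhg16 probe by -0.33, while 1 of the 3 pairs of each went the other way. Snhg11 differed by 0.35 (SE 0.31). It read 9.21 on shAtad2 3 and 8.53 on shCtrl 3 against 7.92 to 8.17 on the other arrays, so most of its spread lay between the arrays numbered 3 and the others. Over the 7 genes the median shift of the third replicate was 0.18 in shAtad2 and 0.41 in shCtrl.

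**Figure D4:**
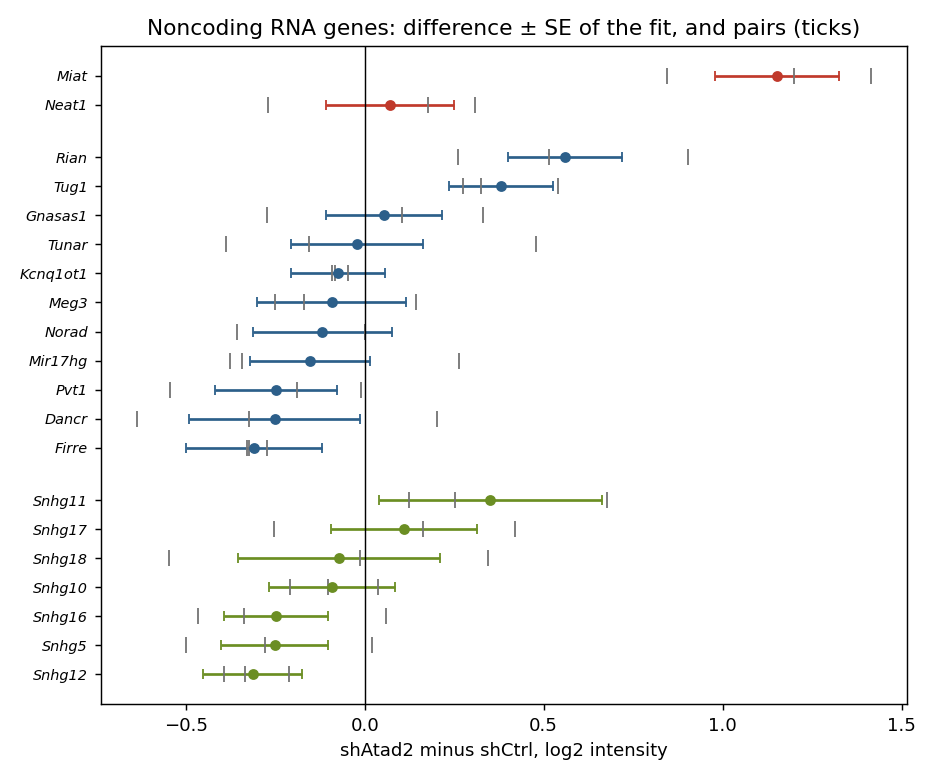
Difference shAtad2 minus shCtrl in log2 intensity (points, with the SE of the fit as bars) and the differences of the 3 pairs (grey ticks) for Miat and Neat1 (red), other noncoding RNA genes (blue) and other snoRNA host genes (green). The 3 Miat pairs lie between 0.84 and 1.41, Rian and Tug1 have all 3 pairs above 0, and Firre and Snhg12 have all 3 below 0.

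The proteins that work with these RNAs were compared next, by the RNA they serve. For Miat, 7 genes were listed, splicing factors that bind it, Pou5f1 and Nanog, whose products bind its gene, and the pluripotency factor gene Sox2. Of these, 5 were tested. Sf1, the branch point binding protein, which Miat RNA binds through a repeated motif, differed by 0.01 (SE 0.15; its other probes by -0.16 to -0.01), and the splicing factor Srsf1 by 0.02 (SE 0.14). Nanog differed by -0.22 (SE 0.14), Sox2 by 0.23 (SE 0.18) and Pou5f1 by -0.12 (SE 0.18), the other probes of Sox2 and Pou5f1 having the opposite sign (-0.07 and 0.09). With limma 0 of the 5 passed, and 0 had an unadjusted p under 0.05, with or without the block. The groups overlapped in all 5.

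For Malat1, genes of nuclear speckles were read, and for Neat1, genes of paraspeckles. Of 18 tested speckle genes 0 rose and 0 fell with limma, and the median was -0.04. An unadjusted p under 0.05 was found for 0, and with the block for 1, against 7.92% and 13.4% of all genes. Srsf10, an SR protein, differed by 0.42 (SE 0.24), but its 3 other probes differed by -0.21 to -0.13. The polypyrimidine tract factor U2af2 differed by -0.21 (SE 0.13) and Srsf2, an SR protein that marks speckles, by 0.17 (SE 0.16). Of 13 tested paraspeckle genes 0 rose and 0 fell (1 at an unadjusted p under 0.05, also with the block), and the median was 0.05. The groups did not overlap in 2 of the 13 (15.4%, against 13.5% of all genes). Nono, a core paraspeckle protein bound to Neat1, read 6.63, 6.68 and 6.24 in shAtad2 and 7.08, 6.75 and 7.15 in shCtrl, a difference of -0.48 (SE 0.18, adjusted p = 0.558). Its groups did not overlap, although shAtad2 2 and shCtrl 2 lay within 0.08. Its partners Sfpq and Pspc1 differed by 0.11 (SE 0.19) and -0.12 (SE 0.20). The RNA-binding protein Taf15 differed by -0.32 (SE 0.15), with no overlap, and Hnrnpa1 by 0.23 (SE 0.15), its other probes by -0.15 and 0.04.

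For the snoRNA hosts, the proteins of snoRNA particles and the factors of nonsense-mediated decay were read. Of 12 tested snoRNA particle genes 9 lay lower and 3 higher, with a median of -0.12. With limma 0 rose and 0 fell. An unadjusted p under 0.05 was found for 2 (16.7%), also with the block, against 7.92% and 13.4% of all genes. Snu13, a core protein of box C/D particles, read 9.09, 9.06 and 8.93 in shAtad2 and 9.59, 9.31 and 9.46 in shCtrl, a difference of -0.42 (SE 0.14, adjusted p = 0.500). Nop10, a core protein of box H/ACA particles, read 12.41, 12.32 and 12.27 against 12.79, 12.72 and 12.56, a difference of -0.36 (SE 0.13, adjusted p = 0.558), its other probe differing by -0.12. The assembly ATPase Ruvbl1 differed by -0.20 (SE 0.13), its other probes by -0.60 and -0.32. The groups did not overlap in these 3 of the 12 genes (25%, against 13.5% of all genes). The core proteins Nop56, Nop58 and Gar1 differed by -0.12 (SE 0.17), 0.02 (SE 0.16) and 0.07 (SE 0.13).

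Of 11 tested decay factors 0 rose and 0 fell with limma, with a median of 0.10. An unadjusted p under 0.05 was found for 0, and with the block for 1, against 7.92% and 13.4% of all genes. The endonuclease Smg6 differed by 0.32 (SE 0.18), the exon junction proteins Casc3 and Rbm8a by 0.19 (SE 0.18) and 0.15 (SE 0.15), the other Rbm8a probe by -0.18, and the helicase Upf1 by 0.10 (SE 0.14). Also read were 17 tested genes of noncoding RNA processing, among them those of protein subunits of RNase P, the enzyme that cuts Malat1. Of these 17 genes 0 passed (0 at an unadjusted p under 0.05, with or without the block). Their median was -0.02, and the groups overlapped in all 17. The RNase P subunits Rpp40, Rpp38 and Rpp14 differed by -0.18 (SE 0.18), -0.17 (SE 0.18) and 0.18 (SE 0.20), Rpp40 being above background on 2 arrays of each group.

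The nearest tested genes on the chromosome were read to see whether the difference of Miat extended beyond it. On one side the nearest was Gm36027, a predicted lncRNA gene, which differed by -0.08 (SE 0.13), with 19 annotated genes between. On the other side it was Tpst2, a protein sulfotransferase gene, with 4 annotated genes between, which differed by 0.08 (SE 0.13) and read 9.86, 9.93 and 9.97 in shAtad2 and 9.87, 9.75 and 9.90 in shCtrl. The Miat difference of 1.15 was thus not shared by the tested gene on either side, and the genes lying between were not tested. Beside Neat1 and Malat1, which are neighbours, Frmd8 differed by 0.40 (SE 0.27) and Ltbp3 by 0.31 (SE 0.38), both with overlapping groups, Frmd8 being above background on 1 shCtrl array. Beside Snhg1, the amino acid transporter gene Slc3a2 differed by -0.19 (SE 0.18) and Wdr74, a ribosome assembly factor, by -0.12 (SE 0.15). Between the starts of Snhg1 and these genes lay 0 and 8 annotated gene starts. The 8 are as many as the snoRNA genes inside Snhg1 itself, which the count takes in. Beside Snhg3, Rcc1, which loads Ran with GTP, differed by -0.27 (SE 0.19) and Phactr4, a phosphatase regulator, by 0.21 (SE 0.13, no overlap). Here 0 and 2 gene starts lay between, the 2 being as many as the snoRNA genes inside Snhg3. Beside Gas5, Rc3h1 and Suco differed by -0.16 (SE 0.18) and -0.22 (SE 0.16). The gene starts between numbered 3 and 25, the 25 taking in the 8 snoRNA genes inside Gas5. Of these neighbours 0 had an unadjusted p under 0.05.

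Genes with a pattern like that of Miat were sought by the root mean square difference of log2 levels over the 6 arrays, each gene being centred on its own mean. Only genes with a full symbol were ranked, RIKEN clones, predicted genes and similar loci being left out. The likeness includes the difference between the groups and is a description of these arrays. The closest was Ppp1r1a, an inhibitor of protein phosphatase 1, at 0.18, where Miat itself lay 0.60 from its mean. It read 10.89, 10.70 and 10.83 in shAtad2 and 9.64, 9.89 and 9.98 in shCtrl. Next came Sfrp1 (0.18), a secreted Wnt antagonist, Prox1 (0.20), a homeobox factor of neural and lymphatic cells, Sox9 (0.20), a transcription factor of neural stem cells, crest and cartilage, and Dpysl2 (0.22), a protein of axon growth. Their differences were 1.14, 0.87, 0.82 and 0.76, and shAtad2 3 was the highest array for all 4, as for Miat. The other kept probe of Sfrp1 differed by 0.90 (SE 0.22) and that of Dpysl2 by 0.27 (SE 0.21), so the place of Dpysl2 among these genes rests on the probe chosen. For Neat1 the closest were Cul5 (0.04), Rap1gap2 (0.04) and Ostm1 (0.05), whose groups overlapped, and Neat1 itself lay 0.19 from its mean. The other kept Cul5 probe differed by -0.41 (SE 0.16), against 0.14 for the one used.

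**Figure D5:**
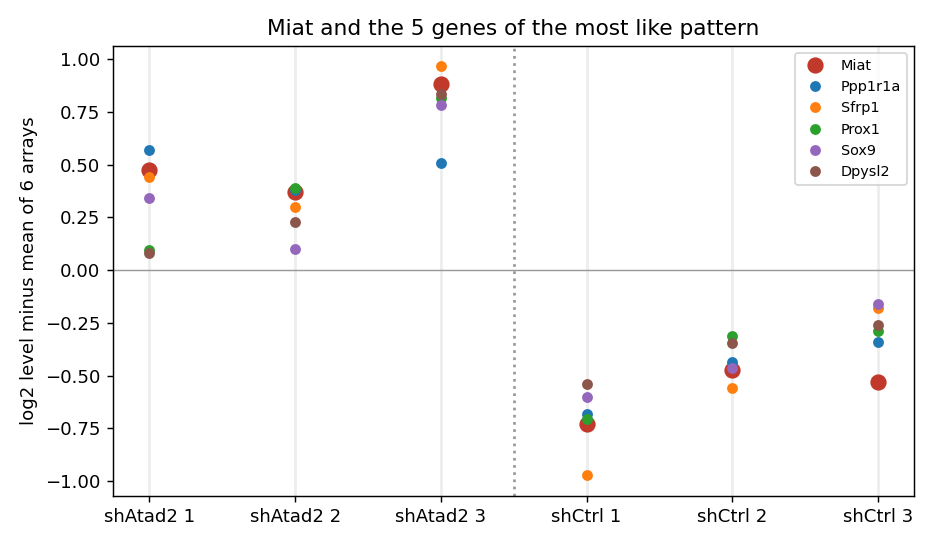
Log2 level minus the mean of the 6 arrays for Miat (large red points) and 5 other genes, array by array. These 5 had the most like pattern among genes with a full symbol. All 6 genes lie above 0 on the 3 shAtad2 arrays and below 0 on the 3 shCtrl arrays, and 5 of them, all but Ppp1r1a, are highest on shAtad2 3.

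Because Miat is known from neural cells, markers of the cell types such cultures can hold were read on the same arrays. In RNA from whole cultures, more cells of a type and more RNA per cell cannot be told apart. Of 12 neural progenitor markers 11 had a probe and 5 passed the detection filter, and their summed linear intensity was 686.8 to 1017 in shAtad2 and 435.8 to 550.3 in shCtrl, without overlap. The sum is led by the brightest of them, Nes and Ncam1. The median difference of the 5 was 0.18, and it turned to -0.12 without shAtad2 3 and also without both arrays numbered 3. It was 0.37 without shAtad2 1, 0.51 over every kept probe and 1.01 for genes detected on all 6 arrays. Nes, an intermediate filament gene, read 8.21, 8.17 and 8.33 against 7.60, 7.59 and 7.72, a difference of 0.60 (SE 0.13, adjusted p = 0.329), and Ncam1, a cell adhesion molecule, differed by 1.42 (SE 0.35, adjusted p = 0.389, or 0.0479 when the replicate number was a block). The other kept probe of Nes differed by 0.74 (SE 0.20) and that of Ncam1 by 0.51 (SE 0.22), so the size of the Ncam1 difference rests on the probe chosen. Zic1 and Cdh2 differed the other way (-0.59, SE 0.39, and -0.54, SE 0.22), Cdh2 being above background on 1 shAtad2 array, and Sox1, Pax6, Hes5, Fabp7, Dll1 and Neurog2 were not tested for want of detection. Ncam1 was lowest on the third replicate of each group, whereas Miat was highest on shAtad2 3. With limma 0 of the 5 passed, and with the block 1, Ncam1, rose. An unadjusted p under 0.05 was found for 3, 2 higher and 1 lower, against 7.92% of all genes. With the block there were 4, against 13.4% of all genes. The groups did not overlap in 2 of the 5, both higher in shAtad2 (40%, against 13.5% of all genes). The part of such cells in the Miat difference was not tested.

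Of 14 neuron markers 7 passed the filter, and their summed intensity overlapped between shAtad2 (1854 to 2303) and shCtrl (2068 to 2487). Map2, a dendrite protein, differed by 0.32 (SE 0.15), Elavl3, an RNA-binding protein of neurons, by 0.36 (SE 0.35) and Nefm, a neurofilament, by -0.47 (SE 0.17; its other probes by -0.42 and -0.13), while Tubb3 and Dcx did not pass the filter. Of 8 fibroblast markers 2 passed, with overlapping summed intensity of 350.4 to 772.3 in shAtad2 and 304.2 to 657.6 in shCtrl, and the collagens Col1a1, Col1a2 and Col3a1 did not. Both lay higher in all 3 pairs. Dcn, a matrix proteoglycan, differed by 0.78 (SE 0.25, adjusted p = 0.501), by replicate number 0.63, 1.06 and 0.64, and was above background on 1 shCtrl array. Thy1, a surface glycoprotein, differed by 0.22 (SE 0.40). Of the 9 markers of primitive streak, mesoderm and endoderm 5 passed and all 5 lay lower, with summed intensity of 500.7 to 1630 and 1073 to 2751. Their median difference was -0.98, but -0.08 without shAtad2 3, -0.46 without shCtrl 1, -0.56 without shCtrl 2 and -1.78 without shCtrl 3. It was -0.51 with no background correction, -0.49 in the authors' processed values and -0.41 for genes detected on all 6 arrays or with no filter. The arrays numbered 3 differed from the other arrays of their group by -2.69 and -2.38 in the median of these genes. Mixl1, a homeobox gene of the primitive streak, fell with the block (-1.50, adjusted p = 0.0479) and not without it (adjusted p = 0.822), 2 shAtad2 arrays and 3 shCtrl arrays reading it above background. Its groups overlapped, and its other kept probe differed by -1.15 (SE 0.97). Of 12 ES cell and epiblast markers all 12 passed the filter, and summed intensity was 67503 to 79004 in shAtad2 and 68287 to 78655 in shCtrl. With limma 0 genes of these 4 lists passed without the block. An unadjusted p under 0.05 was found for 1 neuron and 1 fibroblast marker and for 0 of the other lists (7.92% of all genes), and with the block for 3 of 7 neuron, 1 of 2 fibroblast, 3 of 5 streak, mesoderm and endoderm and 2 of 12 ES cell and epiblast markers (13.4% of all genes). The groups did not overlap in 2 of the 7 neuron markers, 1 higher and 1 lower (28.6%, against 13.5% of all genes). They did not overlap in 0 genes of the other 3 lists. The part of any of these cell types in the differences of Miat or Neat1 was not tested.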

How the data were processed

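Total RNA (200 ng per sample) was amplified to biotinylated cRNA and read on Illumina MouseWG-6 v2.0 beadchips. For 45281 probes the authors deposited the unnormalized intensity and a detection p-value, which moves in steps of 1 in 936, and a table of processed intensity with the same distribution in every column (median 141.1). How the latter was normalized is not given in the sources used here. Unnormalized intensity was taken through neqc (limma 3.58.1, R 4.3.3), which subtracts background by normexp using detection p-values, adds an offset of 16, quantile-normalizes and takes log2. Folds of dim probes are understated. Probes with a detection p-value under 0.05 on at least 3 of 6 arrays were kept (18085), and the brightest kept probe stood for each of 10072 genes. Symbols were updated through the Entrez identifier with the GRCm38.p6 gene table, and 10378 probes carried no symbol. Genes were compared with limma (lmFit, eBayes, two-sided, Benjamini-Hochberg over all genes). The fit was checked on simulated data without a shared shift of the third replicates, so that check does not cover this feature of the arrays.

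The members and lists were chosen with earlier results of these data known. Of the noncoding lists, 4 entries annotated as protein-coding, pseudogene or snoRNA were left out. Named genes were the members, the 3 genes of each list with the smallest p-values (5 for noncoding lists), up to 4 markers per cell type, chromosomal neighbours, the genes of most like pattern, and Atad2. Others (Atp6v0e, Sf1, Srsf1, Sfpq, Pspc1, Nop56, Nop58, Gar1, Upf1, Cdh2, Nefm, Dcn and Thy1) were added after their values were seen. Same-numbered arrays deviated together from their group means (correlation across genes 0.30, 0.29 and 0.58, all above 0.1), so the numbers were read as pairs. The crossed arrays 1 and 2 correlated as well (0.30 and 0.34), so these data set only replicate 3 apart, and the fit blocked on them is given where it changed a call. Alternatives covered background correction, normalization, offset, the authors' processed values, filter, probe choice, variance model, block and each array left out.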

Additional observations from a re-analysis of the deposited data

How the results depend on the processing

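The Miat difference of 1.15 kept its direction under all alternatives, from 0.87 (authors' processed values) and 0.90 (no background correction) upward, and lay at 1.00 to 1.26 when 1 array was left out. The Neat1 difference stayed between 0.04 and 0.07 under the alternatives that kept all arrays, and lay at -0.05 to 0.22 when 1 array was left out, turning below 0 without shAtad2 3 or shCtrl 2. Over all genes, 0 passed in the main limma fit and 1, Atp6v0e, with no background correction, with an offset of 50, in the authors' processed values or with trend and robust variance. With the replicate block 10 passed, among them 1 mesendoderm marker (Mixl1) and 1 neural progenitor marker (Ncam1), and without both arrays numbered 3, a setting chosen after seeing the data, 3 passed, 1 of them Mixl1. When 1 array was left out the number was 0 throughout. Genes at an unadjusted p under 0.05 numbered 798, against 1283 with no filter, 1354 with the block, 1785 without both arrays numbered 3 and 530 to 1163 when 1 array was left out, the 530 being without shAtad2 2. No gene of the noncoding, partner or processing lists passed under any alternative. The block changed no other call. Gas5, Snhg1 and the second Miat probe lay in the background, and 3 arrays per group limit the precision of every difference.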

Other observations

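Among the 96 lncRNA genes tested, those next to Miat in the order of differences are named here because of their values. The RIKEN gene 2410022M11Rik differed by 0.68 (SE 0.12) and 1700048O20Rik by 0.59 (SE 0.17), both without overlap between the groups, ahead of Rian. At the other end, 4632404H12Rik differed by -0.51 (SE 0.24), with overlap, 2010320M18Rik by -0.48 (SE 0.14) and A730063M14Rik by -0.45 (SE 0.15), the latter pair without overlap. None of these passed the limma threshold over all genes. Neat1 ranked 25 from the highest difference.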
